A study of Rattus norvegicus with 2 samples.

Results

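Mural nuclei, the pericytes and smooth muscle cells that wrap the brain's blood vessels, were picked out of 2 single-nucleus RNA libraries of the rat orbitofrontal cortex. A nucleus was taken as mural when it held at least 500 genes and under 5000 UMIs (unique molecular identifiers, each counted as 1 RNA molecule), at least 1 UMI of 2 or more of the 8 genes Pdgfrb, Rgs5, Abcc9, Kcnj8, Notch3, Atp13a5, Myh11 and Acta2, and 0 UMIs of the endothelial genes Flt1 and Mecom, of the neuronal genes Gad1, Gad2 and Slc17a7, of Mog (oligodendrocytes) and of Aqp4 (astrocytes). The rule found 167 of 12512 barcodes, 84 in the METH library and 83 in the saline library. These 8 genes chose the nuclei, so their levels below are a description.

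Male Sprague-Dawley rats aged 8 weeks were given methamphetamine (METH, a stimulant that releases dopamine) at 1 mg/kg, or saline, by intraperitoneal injection over 7 days, in a model of sensitization to the drug. Tissue of 4 animals per group was used, and each group has 1 library, so neither the animals nor the replicate spread can be seen. All intervals below are 95% intervals that cover counting error only, and no p-value is given. The METH library held 5543 barcodes with a median of 6401 UMIs, and the saline library 6969 barcodes with a median of 4992 UMIs. The libraries shared 9 barcodes, and 0 of these were mural.

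Pericytes lie within the basement membrane of capillaries, are recruited during development by PDGF-B acting on the receptor Pdgfrb, and help to form the blood-brain barrier. Smooth muscle cells ring arterioles and set their width through actin and the smooth muscle myosin Myh11. In both cell types Notch3 receives signals from endothelial ligands, and in pericytes Kcnj8 and Abcc9 are the pore and the regulatory subunit of an ATP-sensitive potassium channel that couples metabolism to membrane potential.

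The mural nuclei were small in RNA content. The METH nuclei held 720 to 3855 UMIs with a median of 1179, and the saline nuclei held 618 to 4327 with a median of 955. Summed over nuclei this gave 109219 and 104519 UMIs, the totals behind every level below, written as CPM (the usual counts per unit of depth, with every group of nuclei scaled to the same total). After each nucleus was thinned to 600 UMIs, the median number of genes was 453.5 in METH and 474 in saline, so the METH nuclei were deeper but not richer in genes at equal depth. Scrublet, which called 5.92% of METH and 5.73% of saline barcodes as doublets, called 0 METH and 1 saline mural nuclei, and 8 nuclei of each library held over 1% mitochondrial UMIs.

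How far the label holds depended on how many of the 8 genes a nucleus carried. A set of mural genes that the rule did not use (Vtn, Ebf1, Cald1, Dlc1, Pde5a, Gucy1a1, Gucy1b1 and Cspg4) summed to 13355 CPM (12399 to 14365) in the 47 nuclei with 5 or more rule genes, to 12240 CPM in the 49 with 4, and to 8936 CPM in the 38 with 3. In the 33 nuclei with exactly 2 it was 2634 CPM (2234 to 3084). Just outside the threshold, the 270 nuclei with 1 rule gene that met the other conditions were at 363 CPM, no higher than the 458 CPM of the 1184 nuclei with 0. The astrocyte glutamate transporters Slc1a2 and Slc1a3 ran the other way, at 3147 CPM in the nuclei with 2 rule genes and between 193 and 367 CPM in those with more. Of the 33 nuclei with 2 rule genes 15 fell in the mural-like cluster of an unsupervised clustering, against 35 of 38, 48 of 49 and 47 of 47 for the higher counts.

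**Figure D1:**
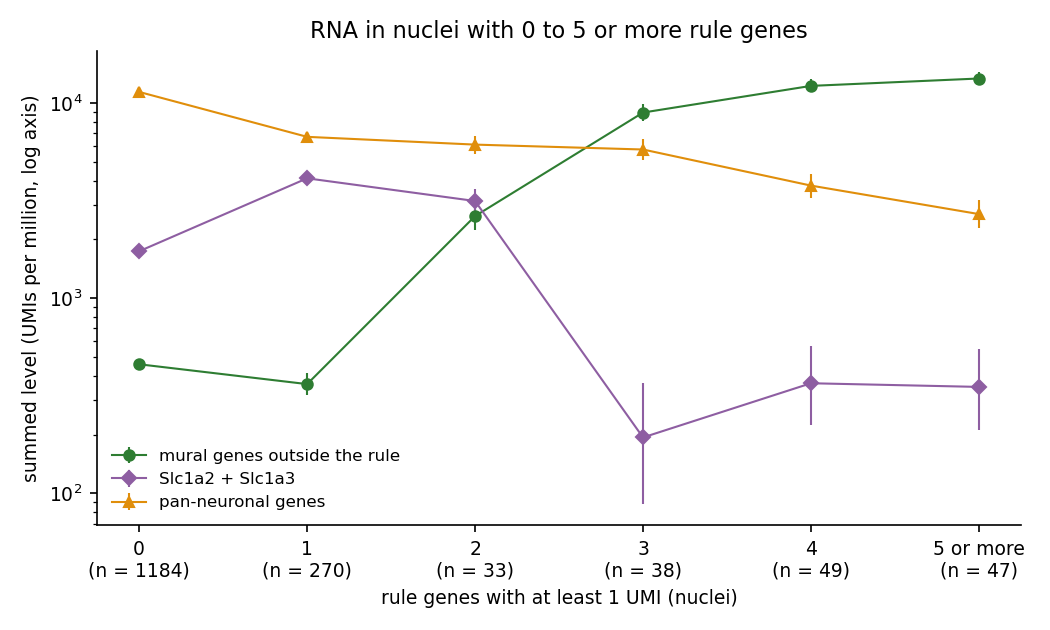
Summed level (CPM, log axis) of the mural genes outside the rule, of Slc1a2 plus Slc1a3 and of the pan-neuronal genes, by the number of rule genes detected in nuclei of both libraries that met the other conditions; bars are exact Poisson 95% intervals. The mural genes rise from 2634 CPM at 2 rule genes to 13355 CPM at 5 or more, while Slc1a2 plus Slc1a3 drop from 3147 to 351 CPM.

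Clustered without the rule, 93 METH and 109 saline nuclei formed that mural-like cluster. Of the mural nuclei, 76 of 84 in METH and 69 of 83 in saline belonged to it. The rule left out 12 METH and 30 saline nuclei of the cluster for a UMI of Gad1, Gad2 or Slc17a7. Within the mural nuclei the endothelial markers summed to 238 CPM in METH and 191 CPM in saline, with Tek, Kdr and Cdh5 at 0 in both; Flt1 and Mecom, also in that list, were set to 0 by the rule. Of 14 fibroblast genes, 8 had a UMI in METH and 7 in saline, while Dcn, Lum, Col1a1, Slc47a1, Ogn and Islr were at 0 in both. The whole fibroblast list summed to 1099 and 1329.9 CPM, with a UMI in 72.6% of METH and 74.7% of saline mural nuclei. Among its detected members were Slc6a13 (50 and 58 UMIs), Tbx15 (27 and 33) and Cped1 (21 and 16). The rule's own limit on UMIs cost few nuclei: 1 METH nucleus (5327 UMIs) and 2 saline nuclei (5241 and 8133 UMIs) met all else.

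Among the rule genes, the pericyte genes dominated. Atp13a5, a P5-type transport ATPase that marks brain pericytes, was found in 67 of 84 METH and 63 of 83 saline nuclei, at 2802 and 2373 CPM. Abcc9 was found in 65 and 62 nuclei, at 1840.3 and 1713 CPM, and its partner Kcnj8 in 18 and 13 nuclei, at 247 and 210.5 CPM. Of the 31 nuclei with Kcnj8, 29 also held Abcc9, and 111 of the 127 Abcc9 nuclei held Atp13a5. The rule asks for 2 genes, which favours such pairs. Pdgfrb was found in 71 and 65 nuclei (1519.9 and 1072 CPM).

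Rgs5, a brake on G-protein signalling in pericytes, was found in 56 METH nuclei (1053 CPM) and 41 saline nuclei (669.7 CPM). Notch3 was found in 46 and 29 nuclei, at 549 and 364 CPM. At 600 UMIs per nucleus, Rgs5 was detected in 53.6% of METH nuclei (42.4 to 64.5) and 34.9% of saline nuclei (24.8 to 46.2), and Notch3 in 33.3% and 19.3%, so both pairs of intervals overlapped. Smooth muscle genes were rare: Myh11 was found in 7 and 12 nuclei (329.6 and 383 CPM) and Acta2, smooth muscle actin, in 2 and 3 (64.1 and 57.4 CPM).

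Background for these genes was read in oligodendrocytes and astrocytes, chosen with no condition on mural genes. In oligodendrocytes, 4 of 278 METH nuclei (1.44%) and 8 of 387 saline nuclei (2.07%) held 2 or more rule genes, at median depths of 2055 and 1697 UMIs. In astrocytes it was 10 of 369 (2.71%) and 12 of 433 (2.77%), at medians of 2323 and 2011 UMIs. Pdgfrb was the exception among the rule genes, with a UMI in 37.1% of METH and 30.9% of saline astrocytes at 202 and 182 CPM. Abcc9 was found in 2 astrocytes of each library.

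**Figure D2:**
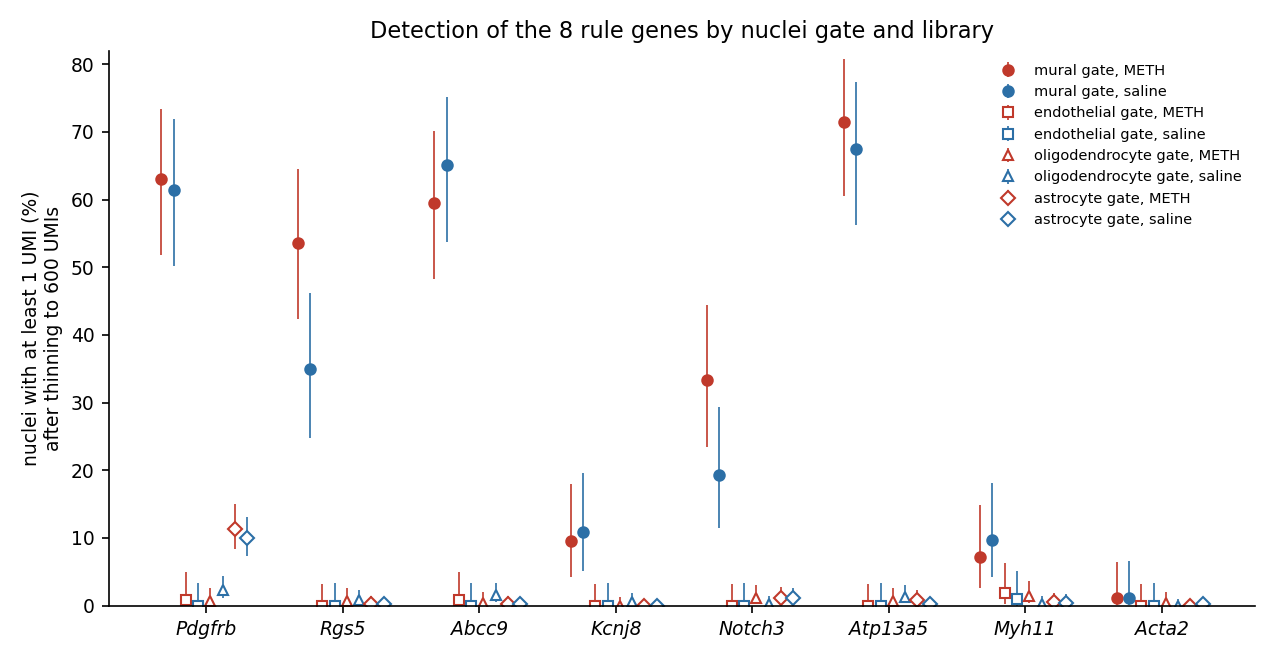
Share of nuclei with at least 1 UMI of each rule gene after thinning to 600 UMIs, in mural (filled), endothelial, oligodendrocyte and astrocyte nuclei (open) of the METH (red) and saline (blue) libraries, with exact 95% binomial intervals. Atp13a5, Abcc9 and Pdgfrb are each found in over 50% of mural nuclei of both libraries, and the astrocytes stand out for Pdgfrb, at 11.4% and 9.93%.

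Genes that no rule used gave the mural nuclei a profile of transport and matrix. Slc6a20, a transporter of proline, reached 1679.6 CPM over both libraries, against 25.7 CPM in endothelial nuclei, 12.2 in oligodendrocytes and 42.8 in astrocytes. The manganese exporter Slc30a10 was at 791 CPM and at most 30.6 CPM in those 3 types. The GABA transporter Slc6a13, which is also in the fibroblast list above, was at 505 CPM and at most 9.51. Lama2, a laminin chain of basement membranes, was at 1160.3 CPM and at most 29.1. Gucy1a2, a subunit of the receptor for nitric oxide, was at 2372 CPM (at most 125), and Gjc1, the connexin that couples vascular muscle cells, at 823 CPM (at most 33.0). Ebf1, a transcription factor with a role in pericyte development, was at 4248 CPM but was not confined to mural nuclei, since endothelial nuclei held 3331 CPM. A gate for fibroblasts, which are known to share several of these genes, found 3 nuclei in METH and 0 in saline. In those 3, Lama2 and Slc6a13 both stood at 1375 CPM, so fibroblasts could not be compared. Slc12a7, listed as a pericyte gene, had 0 UMIs in both libraries, which allows up to 27.5 CPM in METH and 28.7 CPM in saline.

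The mural nuclei were split by Abcc9 against Myh11 and Acta2. All 3 are genes of the rule, in which Myh11 and Acta2 are the sole contractile genes, so the shares describe what the rule picked and not the makeup of the vessel wall. Abcc9 alone was present in 61 METH and 56 saline nuclei, 70.1% of all 167 (62.5 to 76.9). Myh11 or Acta2 without Abcc9 was present in 3 and 6 nuclei, both kinds together in 4 and 6, and neither in 16 and 15. The contractile-only share was 3.57% of METH mural nuclei (0.743 to 10.1) and 7.23% of saline mural nuclei (2.70 to 15.1), a difference that these counts could not resolve. Of the 117 Abcc9-only nuclei 113 lay in the mural-like cluster, but of the 9 contractile-only nuclei 4 did.

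Seen nucleus by nucleus, the contractile UMIs lay in few nuclei. The first METH nucleus held 20 UMIs of Myh11 and 6 of Acta2 among 1370 UMIs, and the second held 8 of Myh11, 0 of Acta2 and 2 of Tagln (transgelin, an actin-binding protein of smooth muscle) among 1027. In saline, a nucleus of 1753 UMIs held 19 of Myh11 and 4 of Acta2, and another of 3502 UMIs held 10 and 1. These 4 nuclei had no UMI of Abcc9, Atp13a5, Rgs5 or Kcnj8. Another METH nucleus held both kinds of gene, with 3 UMIs of Myh11, 1 of Acta2, 4 of Abcc9 and 3 of Atp13a5. All other nuclei with a contractile UMI held 1 or 2 of them.

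Of the contractile-only nuclei with 1 or 2 such UMIs, 1 METH and 1 saline nucleus held 10 and 12 UMIs of Slc1a2 and Slc1a3 and clustered with each other away from the mural-like cluster. Their Lmod1 UMIs (3 and 4) cannot be told from those of astrocytes, because Lmod1, leiomodin, was present in 48.5% of METH and 51.0% of saline astrocytes at 349 and 399 CPM. The saline nucleus of 3502 UMIs also lay outside the mural-like cluster and held 19 pan-neuronal UMIs and 3 of Slc1a2 and Slc1a3. Its part in the levels below was not tested beyond the values per library.

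**Figure D3:**
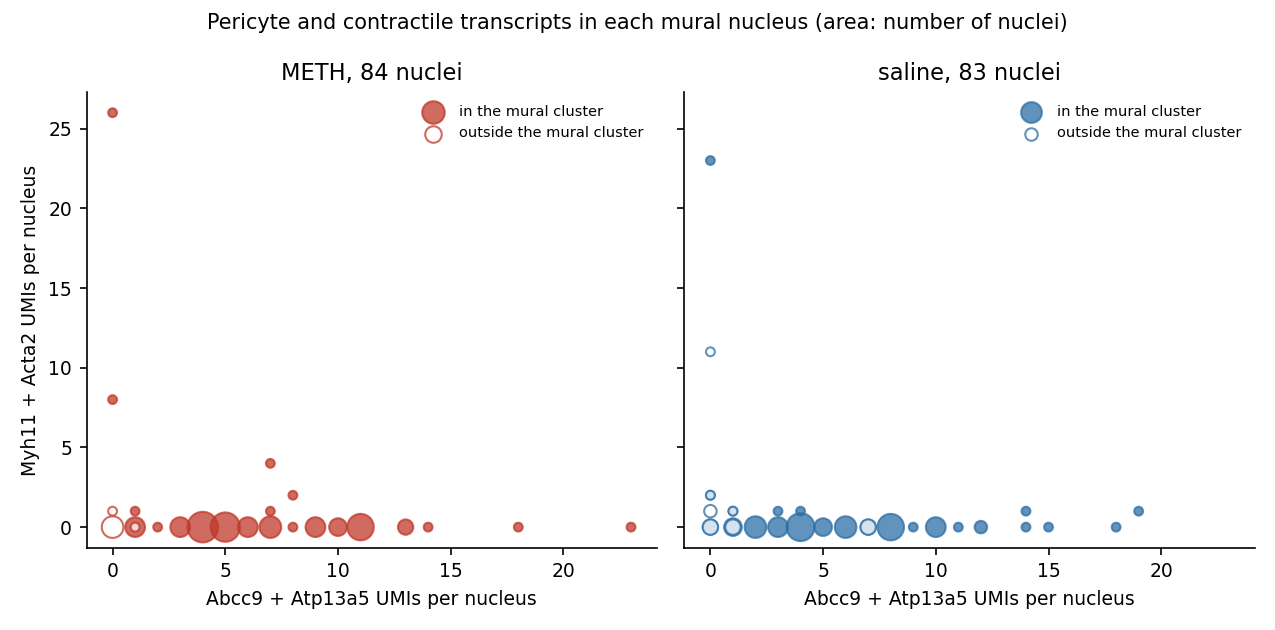
Myh11 plus Acta2 UMIs (vertical) against Abcc9 plus Atp13a5 UMIs (horizontal) of each mural nucleus, METH on the left and saline on the right; point area grows with the number of nuclei at a position, and open points lie outside the mural-like cluster. Both libraries show 2 nuclei with 8 or more contractile UMIs, all at 0 on the horizontal axis, while most nuclei lie along it.

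Compared with the 117 Abcc9-only nuclei (136639 UMIs), the 9 contractile-only nuclei (16050 UMIs) had 46 of 949 measured genes higher (4.85%) and 64 lower (6.74%). A gene was measured with at least 30 UMIs, and called when its ratio and the near bound of its interval both passed 1.5-fold. Because a few abundant genes differ so much, the scaling matters: the median gene lay at a log2 ratio of -0.30 in CPM and at -1.01 after TMM scaling, which gave 21 higher and 186 lower. With the contractile nuclei limited to the 4 with at least 3 Myh11 and Acta2 UMIs, a limit set after seeing the data, 32 genes were higher, 19 of them among the 46, and 24 lower, 23 of them among the 64. Myh11, Acta2 and Abcc9 made the groups, and the other rule genes are touched by the rule, so none of these counts as a result.

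Pdlim5 (ENSRNOG00000016419), which links the Z-disc and actin fibres to kinases, had 24 UMIs in 7 of 9 contractile nuclei and 7 UMIs in all Abcc9-only nuclei, 1495 against 51.2 CPM (log2 4.87, 3.61 to 6.33). The ratio was 54.9-fold in METH alone and 17.2-fold in saline alone. Tpm1, tropomyosin, was at 1371 against 161 CPM (3.09, 2.17 to 4.01), with 10 UMIs in METH and 12 in saline, or 14.6-fold and 5.72-fold by library. Enah, which lengthens actin filaments, was at 1558 against 183 CPM (3.09, 2.23 to 3.95), with the same 14.6-fold and 5.72-fold by library, but astrocytes also held it at 1593 CPM.

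The actin-binding proteins nexilin (Nexn) and synaptopodin 2 (Synpo2) had too few UMIs for the rule and are named after seeing their values. Nexn had 21 UMIs, all in the 4 nuclei with most Myh11 (2744 CPM), against 3 UMIs in the Abcc9-only nuclei (22.0 CPM). Synpo2 had 12 UMIs in those 4 nuclei against 2 (1568 and 14.6 CPM). Each of the 4 nuclei carried both genes.

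Pde3a, a phosphodiesterase that breaks down cAMP and is inhibited by cGMP, had 27 METH and 35 saline UMIs in the 4 nuclei, 8102 CPM (6212 to 10387) against 1069 CPM in the Abcc9-only nuclei. Crim1, a membrane protein that binds growth factors, was at 2118 against 102 CPM (4.37, 3.43 to 5.38), 54.9-fold in METH alone and 10.9-fold in saline alone, and in the 4 nuclei it had 13 UMIs in METH and 18 in saline. Ntrk3, the receptor of neurotrophin-3, was at 1371 against 219.6 CPM (2.64, 1.78 to 3.48). Kcnma1, the large-conductance calcium-activated potassium channel of smooth muscle, was at 1308 against 409.8 CPM (1.67, 0.88 to 2.42), with 989 CPM in astrocytes.

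Sox6, Ptprz1, Dgkb, Usp54 and Ctnnd2 were also higher in the contractile-only nuclei, and all 5 are abundant in astrocytes, at 1391 to 3286 CPM. By library, Sox6 was 32.9-fold higher in METH and 11.4-fold in saline, and Usp54 3.99-fold and 8.17-fold. In the 4 nuclei 12 of 13 UMIs of Ptprz1 came from saline, and the 12 UMIs of Ctnnd2 from a single saline nucleus. The 6 UMIs of Usp54 there came from 1 saline nucleus as well. Dgkb (21 UMIs, 5 in METH and 16 in saline) and Sox6 (9 UMIs, 2 and 7) were found in each of the 4 nuclei. Markers of oligodendrocyte precursors, a list that includes Ptprz1 and Sox6, summed to 77 UMIs in the 9 contractile-only nuclei and 106 in the 117 Abcc9-only nuclei (2.63, 2.19 to 3.07), and microglial markers to 23 and 19 UMIs (3.37, 2.42 to 4.32). Few contractile-only nuclei carried these UMIs. For precursor markers the highest nucleus held 12 of 16 UMIs in METH and 34 of 61 in saline. For microglial markers it held 4 of 4 and 16 of 19. What RNA of other cells adds to the 5 genes was not tested. Errfi1, an inhibitor of EGF receptor signalling, was at 935 against 124 CPM (2.91, 1.80 to 4.00), with 6 UMIs in each library's pair of nuclei and ratios of 7.88-fold in METH and 11.4-fold in saline.

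On the pericyte side, the contractile-only nuclei had no UMI of 8 of the 12 genes furthest down, Abcc9 among them by definition. With a floor of 3 counts for 0 over the group, Slc6a20 (2261 CPM in the Abcc9-only nuclei) was at least 12.1-fold lower, and Arhgap42 (1149 CPM) at least 6.15-fold lower. Slc30a10 (959 CPM), Pdzd2 (915 CPM) and Myof, a membrane repair protein (834 CPM), were at least 5.13-fold, 4.89-fold and 4.46-fold lower. The interval bounds used for the calls were nearer to 1, at 9.78-fold for Slc6a20, 4.94-fold for Arhgap42, 4.11-fold for Slc30a10, 3.92-fold for Pdzd2 and 3.57-fold for Myof. The 4 nuclei with at least 3 Myh11 and Acta2 UMIs held 7652 of the 16050 UMIs and no UMI of these genes. There the same floor gave 5.77-fold for Slc6a20 and 2.93-fold for Arhgap42. For Slc30a10, Pdzd2 and Myof it gave 2.45-fold, 2.33-fold and 2.13-fold. Of the rule genes, Atp13a5 (3301 CPM) and Rgs5 (1090.5 CPM) were at 0 as well.

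Pde8b (ENSRNOG00000010280), a phosphodiesterase specific to cAMP, had 3 UMIs (187 CPM) against 390 (2854 CPM), a log2 ratio of -3.93 (-6.22 to -2.37). Lama2 had 1 UMI against 211 (62.3 and 1544 CPM, -4.63, -9.94 to -2.14), and the tyrosine phosphatase Ptpn9 had 1 against 182 (-4.42, -9.73 to -1.92). Septin4 had 1 UMI against 166. The single UMI of Lama2 and of Ptpn9 came from saline, and that of Septin4 from METH. Notch3, a rule gene given as a description, was at 498 against 476 CPM (0.07, -1.20 to 1.13), while Ebf1 was lower in the contractile-only nuclei, at 1433 against 5364 CPM (-1.90, -2.57 to -1.31). In the 4 nuclei with at least 3 Myh11 and Acta2 UMIs, Notch3 was at 1045 CPM (1.14, -0.14 to 2.20). Ebf1 was at 2614 CPM there (-1.04, -1.76 to -0.40), a smaller difference.

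By list, and without its 2 rule genes, 0 of 10 pericyte-enriched genes with at least 30 UMIs had a ratio above 0 in the contractile-only nuclei, with a median log2 ratio of -1.39, beside 370 of 949 genes with a median of -0.30. Of 15 basement membrane and matrix genes 2 lay above 0 (median -1.34). Of the smooth muscle contraction list, 6 genes had enough UMIs and 3 lay above 0. Tpm1 was called higher and Cald1 lower. In the 4 nuclei with at least 3 Myh11 and Acta2 UMIs they were at 3.70 (2.67 to 4.69) and -1.21 (-2.67 to -0.07). The list's members Tagln (5 UMIs in 3 of the 4 nuclei, 0 in the Abcc9-only nuclei) and Myocd, the coactivator that drives smooth muscle genes (4 and 4 UMIs, 523 and 29.3 CPM), were too sparse to enter that count. Summed over all its members, the list had 163 UMIs in the contractile-only and 620 in the Abcc9-only nuclei (1.16, 0.90 to 1.41). The sum includes Lmod1, which astrocytes hold too.

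**Figure D4:**
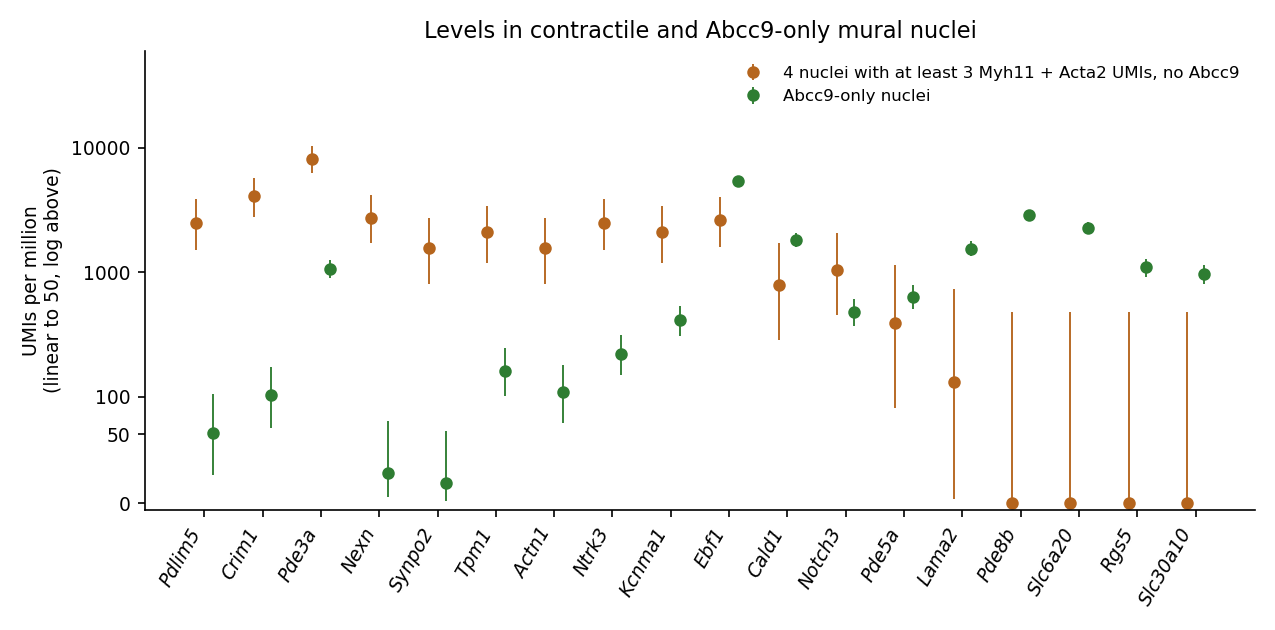
Levels (CPM, linear up to 50 and logarithmic above) of 18 genes in the 4 mural nuclei with at least 3 Myh11 plus Acta2 UMIs and no Abcc9, and in the 117 Abcc9-only nuclei, with exact Poisson 95% intervals. Pdlim5 to Kcnma1 lie higher in the 4 nuclei, Pde3a at 8102 against 1069 CPM, and Pde8b, Slc6a20, Rgs5 and Slc30a10 had no UMI there.

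The promoters of 2 contractile genes, from 250 bases before the transcription start up to it, are shown because Acta2 helped to choose the contractile nuclei, Tpm1 was higher in them, and Notch signalling, through the factor RBPJ, acts on mural genes. The sequences are those of RefSeq on the build GRCr8, on the strand of the gene, and the capitals mark the letters TGGGAA, the core that RBPJ recognises.
Acta2, chr1:241172504-241172753, minus strand: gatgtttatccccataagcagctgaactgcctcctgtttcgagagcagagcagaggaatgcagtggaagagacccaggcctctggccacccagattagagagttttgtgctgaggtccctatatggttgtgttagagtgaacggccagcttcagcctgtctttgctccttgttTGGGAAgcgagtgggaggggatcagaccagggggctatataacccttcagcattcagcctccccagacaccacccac
Tpm1, chr8:76543416-76543665, minus strand: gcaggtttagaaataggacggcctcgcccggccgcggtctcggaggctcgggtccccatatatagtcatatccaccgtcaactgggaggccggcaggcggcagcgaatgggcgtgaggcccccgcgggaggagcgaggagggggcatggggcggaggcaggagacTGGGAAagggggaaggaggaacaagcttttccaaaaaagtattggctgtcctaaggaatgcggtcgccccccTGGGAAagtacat

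The core begins 77 bases before the start of Acta2, and 85 and 13 bases before that of Tpm1. Searched on both strands from 250 bases before to 50 after the start, it was found in 10 of 20 promoters of the contraction list (50%), 5 of 15 of the pericyte-enriched list (33.3%) and 7 of 16 of the Notch list (43.8%), beside 25.7% of all 33469 promoters. The CArG box, the site of serum response factor, was searched with no mismatch. It was found in 2 of the 20 contraction promoters, those of Cnn2 and Ldb3, in 0 of 15 and 0 of 16 of the other lists, and in 1.64% of all promoters. Neither printed sequence holds an exact match. Near matches were not counted, such as ccctatatgg and ccttgtttgg in the Acta2 sequence, each a single letter off the box. The table has entries for 18 of the 26 genes of the contraction list, with Tagln, Lmod1 and Myocd among those missing; Myh11, outside that list, is missing too. A match of letters is not a bound site, and some genes have more than 1 promoter in the table.

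The second comparison set the METH mural nuclei against the saline mural nuclei. Mural nuclei were 1.53% of METH nuclei with at least 500 genes (1.22 to 1.89) and 1.20% of saline nuclei (0.957 to 1.49), a log2 ratio of 0.35 (-0.10 to 0.81). Among nuclei under 5000 UMIs, the pool from which the rule draws, the shares were 4.02% and 2.41% (0.74, 0.28 to 1.19). That pool held 2089 of 5490 METH nuclei and 3437 of 6917 saline nuclei, so it differed between the libraries itself. Counted as the whole mural-like cluster, the log2 ratio was 0.10 (-0.31 to 0.52).

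Few genes differed past the size rule. Of 215 genes with at least 100 UMIs, 2 were higher in METH (0.93%) and 8 lower (3.72%), and with TMM scaling 6 were higher and 4 lower. Adap2 (ENSRNOG00000037148), a regulator of the small GTPase Arf6 that was also among the most mural of genes, had 84 UMIs in 44 METH nuclei and 27 in 23 saline nuclei, 769 against 258 CPM (1.57, 0.93 to 2.26). Rbpms (ENSRNOG00000013328), an RNA-binding protein that steers splicing in smooth muscle, had 188 UMIs in 63 nuclei and 84 in 44, 1721 against 804 CPM (1.10, 0.72 to 1.49). No nucleus held more than 11.1% of the UMIs of Adap2 or 5.95% of those of Rbpms in its library. Within the members of the mural-like cluster the ratios were 1.30 (0.64 to 2.01) for Adap2, the sole gene called there, and 0.88 (0.49 to 1.29) for Rbpms. In the whole cluster, with nuclei the rule left out, they were 1.00 (0.48 to 1.54) and 0.57 (0.26 to 0.89), and neither was called.

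The other genes ranked highest stayed under the size rule, with intervals above 0. Zbtb16, a transcription factor induced by glucocorticoids, was at 1044 against 517 CPM (1.01, 0.54 to 1.51), and at 0.98 (0.43 to 1.56) within the cluster. It was at 0.71 (0.33 to 1.10) in endothelial nuclei, 0.48 (0.31 to 0.66) in oligodendrocytes and -0.07 (-0.25 to 0.11) in astrocytes. Ptpn9 was at 1328 against 756 CPM (0.81, 0.41 to 1.23), and at 0.79 (0.35 to 1.25) in the cluster.

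Plce1, a phospholipase C (1355 against 679 CPM), Sntb1, a syntrophin (742 against 354 CPM), Ebf1 (5237 against 3215 CPM), Grm3, a metabotropic glutamate receptor (2793 against 1722 CPM), and Cald1, the actin regulator caldesmon (1785 against 1081 CPM), had log2 ratios between 0.70 and 1.07. Within the cluster these were smaller: 0.60 for Plce1, 0.60 for Sntb1, 0.40 for Ebf1, 0.43 for Grm3 and 0.44 for Cald1, with the interval of Sntb1 reaching below 0 (-0.03).

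Of the 8 genes called lower in METH, Nrxn3 and Syt1 belong to the pan-neuronal list. Nrxn3, a presynaptic adhesion protein, was at 979.7 against 2507 CPM (-1.36, -1.69 to -1.03), and Lrrtm4, a postsynaptic partner of neurexins, at 366 against 1158 CPM (-1.66, -2.21 to -1.13). Syt1, the calcium sensor of synaptic vesicles, the synaptic adhesion proteins Nlgn1, Il1rapl1 and Adgrb3, and Opcml and Anks1b lay between -1.45 and -0.95. The highest saline nucleus held 15.6% to 23.4% of the UMIs of each of the 8. Within the mural-like cluster 0 of the 8 were called, and 4 of them had too few UMIs there to be called. Of the 8, 7 were below 0, and 3 had intervals below 0: Adgrb3 at -0.88 (-1.48 to -0.28), Lrrtm4 at -0.76 (-1.47 to -0.06) and Syt1 at -0.57 (-1.13 to -0.02). Nrxn3 was at -0.08 (-0.54 to 0.39), and Opcml turned to 0.35 (-0.51 to 1.25). With at least 3 rule genes per nucleus, the other way of tightening the set, 5 of the 8 were still called, among them Adgrb3 (-1.62, -2.19 to -1.07) and Lrrtm4 (-1.91, -2.58 to -1.29). That set was not tightened alike, since 71 of 71 METH but 59 of 63 saline nuclei lay in the mural-like cluster. The pan-neuronal list stood at 2959 CPM in METH and 5219 CPM in saline in it.

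RNA of neurons differed between the libraries in the same direction. The pan-neuronal list summed to 2939 CPM in METH mural nuclei and 6296 CPM in saline mural nuclei (-1.10, -1.30 to -0.90). All 7 of its genes with enough UMIs were below 0, with a median of -1.12, beside 0.01 for all 1534 genes with at least 30 UMIs. The saline excess sat mainly in the nuclei outside the mural-like cluster: 14 such nuclei held 10891 CPM in saline and 8 held 3115 CPM in METH, while the members inside it held 3516 and 2898 CPM. Nrxn3 was also lower in METH in endothelial nuclei (-0.93, -1.28 to -0.59) and in oligodendrocytes (-1.39, -1.55 to -1.24). Of the 8 genes called lower, 7 had intervals below 0 in endothelial nuclei, 5 in oligodendrocytes and 4 in astrocytes. Lrrtm4 did not follow in endothelial nuclei (0.12, -0.35 to 0.60) or astrocytes (-0.01, -0.22 to 0.20), nor Il1rapl1 (0.03, -0.06 to 0.12) and Anks1b (-0.03, -0.12 to 0.05) in oligodendrocytes, where Opcml was higher in METH (0.19, 0.04 to 0.34). Markers of oligodendrocyte precursors (1144 and 1818 CPM), microglia (128 and 306 CPM) and excitatory neurons (1053 and 1626.5 CPM) were lower in METH mural nuclei as well, and those of astrocytes were not (3150 and 2889 CPM; 0.12, -0.10 to 0.35). A single saline nucleus held 16 of the 32 saline microglial UMIs. Among the members inside the mural-like cluster the METH and saline levels were closer. Precursor markers were at 632 and 583 CPM there, microglial at 135 and 154 CPM, and excitatory at 947 and 1075 CPM. Slc17a7 in the excitatory list and Aqp4 in the astrocyte list are at 0 by the rule. The part of this RNA in the ratios above was not tested beyond the values within the cluster.

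Mural genes mostly lay higher in METH. Of 18 further mural genes outside the rule, 17 had a ratio above 0, with a median of 0.67, beside 780 of 1534 genes and a median of 0.01, and 0 of the 18 passed the size rule. Mylk, the kinase that starts smooth muscle contraction, had 53 UMIs in METH and 21 in saline, 485 against 201 CPM (1.27, 0.52 to 2.08). Ndufa4l2, a mitochondrial protein typical of pericytes, had 23 and 7 UMIs (1.65, 0.39 to 3.12). Pde3a (0.04) and Gucy1b1 (-0.18) lay near 0. Within the mural-like cluster 15 of the 18 were above 0 with a median of 0.41, and Mylk was at 1.28 (0.45 to 2.19). The summed mural genes outside the rule stood at 13600 CPM in METH and 10733 CPM in saline there.

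**Figure D5:**
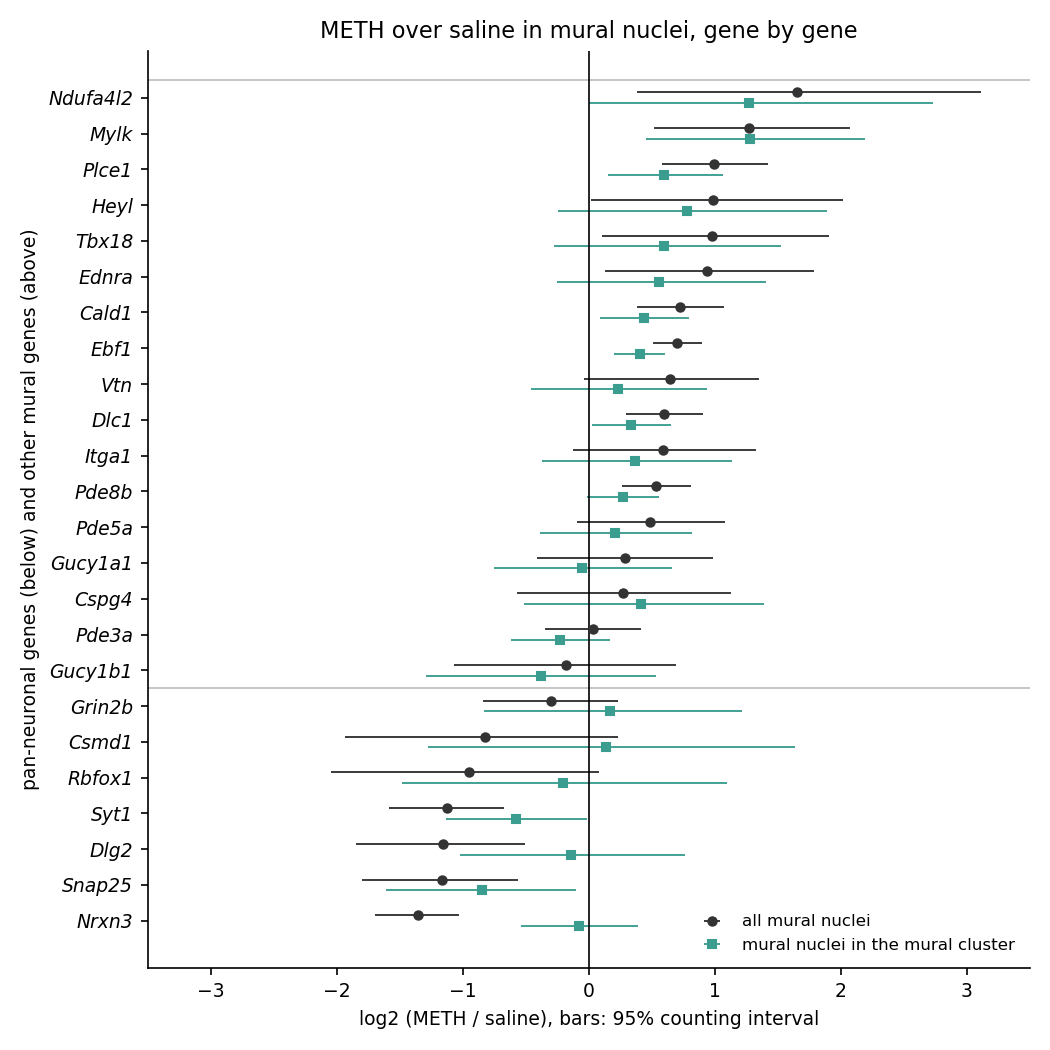
Log2 ratio of METH over saline for the 7 pan-neuronal genes (below the line) and 17 of the 18 mural genes outside the rule (above it) with at least 30 UMIs, over all mural nuclei (circles) and over those in the mural-like cluster (squares), with 95% counting intervals. The pan-neuronal genes shift toward 0 inside the cluster, from a median of -1.12 to -0.14, and the 18 mural genes from 0.67 to 0.41.

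Without the rule genes Kcnj8 and Atp13a5, the pericyte-enriched list gave 12 of 12 genes above 0 with a median of 0.56, and 8 of 11 with a median of 0.34 within the cluster. Among them Slc30a10 was at 970.5 against 603 CPM (0.69, 0.22 to 1.16). The rule genes themselves, given as a description, had ratios of 0.10 (-0.19 to 0.40) for Abcc9, 0.24 (-0.01 to 0.49) for Atp13a5, 0.50 (0.15 to 0.86) for Pdgfrb and 0.65 (0.21 to 1.10) for Rgs5. Abcc9 and Kcnj8 summed with their channel relatives to 0.08 (-0.20 to 0.36), and to -0.23 (-0.51 to 0.06) within the cluster. Both are rule genes, so this too is a description.

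In the list of mural transcription factors 9 of 13 genes were above 0 with a median of 0.70. The sole gene called was Rbpms, an RNA-binding protein counted among the 13. Epas1, the hypoxia-inducible factor of vessels, was at 531 against 277 CPM (0.94, 0.27 to 1.63), Nr2f2 at 504 against 277 CPM (0.86, 0.19 to 1.56) and Tbx18 at 320.5 against 163 CPM (0.98, 0.10 to 1.91). Within the cluster 9 of 11 were above 0 with a median of 0.60. Of 5 glucocorticoid-responsive genes 4 were above 0, but Fkbp5, a standard target of the receptor, had 14 and 21 UMIs (-0.65, -1.74 to 0.40). Immediate-early genes summed to 70 and 49 UMIs, too few for any of them to be compared.

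Calcium and ion channels had 7 of 15 above 0 with a median of -0.04, and 7 of 12 with a median of 0.19 within the cluster. Ano1, the calcium-activated chloride channel of pericytes, was at 403 against 210.5 CPM (0.94, 0.17 to 1.75) and Kcnma1 at 449 against 669.7 CPM (-0.58, -1.14 to -0.03). Within the cluster Ano1 was at 0.55, with an interval across 0 (-0.21 to 1.36). In the cyclic nucleotide list 6 of 11 were above 0 (2 of 10 within the cluster), and its extremes were below: Pde10a, a phosphodiesterase abundant in striatal neurons, had 14 UMIs in METH and 53 in saline (-1.98, -2.95 to -1.11), and kept -1.77 (-2.99 to -0.66) within the cluster. It was lower in METH in astrocytes too, at 105 against 575 CPM (-2.45, -2.77 to -2.14), and less so in oligodendrocytes (-0.77, -1.25 to -0.31). In endothelial nuclei Pde10a had 16 and 17 UMIs, with an interval across 0 (-0.25, -1.33 to 0.83). Pde4b had 8 and 25 UMIs (-1.71, -3.07 to -0.51), and -0.64 with an interval across 0 (-2.33 to 1.02) in the cluster.

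Pathways from the vessel wall gave small differences. In the PDGF list without the rule gene Pdgfrb 4 of 5 were above 0 (median 0.08), and 2 of 4 within the cluster (median -0.12), with the adaptor Gab1 at 0.59 (0.02 to 1.17) and the adaptor Grb2 at -0.98 (-1.89 to -0.12). In the Notch list without the rule gene Notch3 2 of 3 were above 0: the target Heyl had 29 and 14 UMIs (0.99, 0.02 to 2.02), Notch1 was at 0.26 and the coactivator Maml2 at -0.09. Notch3 itself, as a description, was at 0.60 (-0.01 to 1.22). Of 17 basement membrane and matrix genes 13 were above 0 with a median of 0.24, but 9 of 16 with a median of 0.03 within the cluster. Lama2 was at 1447 against 861 CPM (0.75, 0.37 to 1.14), agrin (Agrn) at 0.97 (0.17 to 1.82) and Col4a3 at -0.53 (-1.13 to 0.05). Of 13 transporters outside the rule 9 were above 0 (median 0.29), and 4 of 8 within the cluster (median 0.03).

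Receptors of vasoactive signals were sparse, and of 48 listed ones 3 had at least 30 UMIs. Ednra, the endothelin receptor of vascular muscle, was at 366 against 191 CPM (0.94, 0.13 to 1.79), P2ry14, a receptor of UDP-sugars, at 439.5 against 277 CPM (0.66, -0.03 to 1.38), and Calcrl, the receptor subunit for CGRP and adrenomedullin, at 284 against 258 CPM (0.14, -0.66 to 0.94). In the contractile-only nuclei, 3 against 6, no comparison of METH with saline was possible beyond the values per nucleus above.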

How the data were processed

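The matrices deposited by the authors give UMI counts, not normalized, for each gene in each barcode. Cell Ranger 7.0.0 made them, per the file headers. The submitters' processing notes name hg38, which does not match the rat Ensembl identifiers, and no source used here names the rat build. The mural nuclei and the gene lists were chosen with earlier results of these data known.

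UMIs were summed over nuclei and scaled to CPM. Ratios carry exact conditional binomial intervals, levels exact Poisson and shares Clopper-Pearson intervals, all for counting error only. METH genes were measured with at least 100 UMIs and 20 CPM. A floor of 3 counts stood for 0. Scrublet (expected rate 0.06) and Leiden clustering (scanpy 1.11.5, igraph 0.11.9, resolution 1) served as checks, and TMM factors came from edgeR 4.0.16. The ratios and calls were checked on simulated Poisson counts drawn from the pooled mural levels. Such counts hold no spread between nuclei or animals, so that check covers counting error only. Named were the 10 genes highest and lowest in METH and the 12 in each direction between subgroups, by the interval bound nearest to 0 and leaving out mitochondrial, ribosomal protein, haemoglobin and clone-named genes, the rule genes, and list members with the largest ratios. The 11 alternatives planned and 2 added after seeing the data are given at the end. Some named genes and lists are not reported here.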

Additional observations from a re-analysis of the deposited data

How the results depend on the processing

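The counts of called genes moved with most settings (main counts: 2 higher and 8 lower in METH; 46 higher in contractile and 64 higher in Abcc9 nuclei). The 8 lower in METH became 5 without doublets, 5 at up to 1% mitochondrial UMIs, 18 with no upper UMI limit, 2 at 1000 or more genes, 1 at 1000 to 3000 UMIs, 0 in the mural-like cluster, 0 after thinning, 4 with TMM, 29 at a lower UMI minimum with no CPM minimum (a pair of changes made together, here and below), 5 without each gene's highest nucleus and 1 over the whole cluster. The 2 higher became 3 at up to 1% mitochondrial UMIs, 4 with no UMI limit, 3 at 1000 or more genes (0 of the 2 among them), 1 at 1000 to 3000 UMIs, 1 in the cluster, 0 after thinning, 6 with TMM, 6 at the lower UMI minimum with no CPM minimum and 0 over the whole cluster. The 46 became 24 at 3 or more rule genes, 69 with no UMI limit (30 of the 46 among them), 8 at 1000 genes, 23 at 1000 to 3000 UMIs, 17 in the cluster, 8 after thinning, 21 with TMM, 102 at the lower UMI minimum with no CPM minimum, 14 without the highest nucleus and 21 over the whole cluster. The 64 became 28 at 3 rule genes, 117 with no UMI limit, 15 at 1000 genes, 16 in the cluster, 21 after thinning, 186 with TMM, 98 without the highest nucleus, 14 over the whole cluster and 24 with 3 contractile UMIs. Thinning and the narrower sets test fewer genes (60 for METH after thinning, against 215); the cause was not tested elsewhere. The mural share ratio was 1.23 (0.58 to 1.89) at 1000 to 3000 UMIs. Ratios that turned were Syt1 (0.050) and Il1rapl1 (0.27) at 1000 to 3000 UMIs, and Opcml in the cluster (0.35) and the whole cluster (0.38). Depth limits the rare genes: 0 UMIs allow up to 27.5 CPM in METH and 28.7 CPM in saline mural nuclei. No paired analysis was possible because each group has 1 library.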
